A study of Homo sapiens with 6 samples.

Results

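Histone genes were examined in the chronic myeloid leukemia cell line K562 after inhibition of EZH2, the catalytic subunit of the Polycomb repressive complex PRC2 that methylates lysine 27 of histone H3. The genes were chosen by name among the protein-coding genes of the GENCODE 44 annotation of GRCh38, and 92 of 20046 protein-coding genes met the rule. Of these, 70 were taken as replication-dependent by name (the H2AC, H2BC, H3C and H4C genes and H1-1 to H1-6), and the other 22 were taken as variants. The cells were a single K562 clone carrying Flag-NLS-M.CviPI-Lamin-B1, a doxycycline-inducible fusion of a GpC methyltransferase to a lamina protein. They were treated for 72 h with 1 µM of the EZH2 inhibitor GSK343 (EZH2i, 3 cultures) or with 0.1% DMSO as vehicle (DMSO, 3 cultures), and both groups received 1 µg/mL doxycycline for the last 24 h, so that no group without the fusion induced was compared.

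Histones package DNA into nucleosomes. The replication-dependent genes lie in clusters, have mostly a single exon and are transcribed as DNA is copied in S phase. Their mRNAs normally end just after a stem-loop that is bound by SLBP, and carry no poly(A) tail. The variant genes mostly lie outside these clusters, though some are neighbours, such as H2BW1 and H2BW2. Many are transcribed outside S phase as well, and most give polyadenylated mRNAs in the usual way. The libraries were made with a kit that primes complementary DNA from poly(A) with oligo-dT and places reads near the 3′ end, so reads on a replication-dependent gene came from RNA that carried A residues for priming, in a tail or within the transcript. Counts from such libraries are a measure of that RNA and not of the whole histone mRNA pool.

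The stem-loop was searched for in the 150 bases after each stop codon, on the transcript strand, as a stem of 6 base pairs whose 5′ arm starts with GG and whose 3′ arm ends with CC, with G–T pairs allowed, and a loop of 4 bases that starts with T. It was found in 69 of 70 replication-dependent genes (98.6%), in 3 of 22 variants (13.6%; H2AX, H3-4 and H3-7) and in 152 of 19605 protein-coding genes (0.775%). The sequences of 6 genes that the results below turn on are given here from the GRCh38 genome, 5′ to 3′ on the transcript strand, with the stem arms in capitals. All lie in the annotated or adjoining sequence after the stop codon.
H4C3, chr6:26104312-26104337, plus strand: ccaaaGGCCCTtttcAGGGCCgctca
H1-2, chr6:26055739-26055764, minus strand: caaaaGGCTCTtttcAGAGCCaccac
H2AC25, chr1:228457364-228457389, minus strand: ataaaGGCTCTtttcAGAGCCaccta
H3C10, chr6:27810511-27810536, plus strand: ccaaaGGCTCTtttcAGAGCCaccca
H2BC12, chr6:27146361-27146386, minus strand: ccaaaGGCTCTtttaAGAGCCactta
H2AX, chr11:119094893-119094918, minus strand: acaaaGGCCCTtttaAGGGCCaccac
The first 5 are replication-dependent by name, and H2AX, which is phosphorylated at DNA breaks, is a variant that has the stem-loop as well as a poly(A) signal near an annotated end. The stem-loop began 58 bases after the stop codon in H4C3 and 28 bases after it in H1-2.

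A hexamer poly(A) signal, AATAAA or ATTAAA on the transcript strand, was found within the last 50 bases of an annotated coding transcript in 12 of 70 replication-dependent genes (17.1%), in 20 of 22 variants (90.9%) and in 16563 of 19701 protein-coding genes (84.1%). Of the 12 replication-dependent genes, 8 code for H2B (H2BC4, H2BC5, H2BC6, H2BC9, H2BC11, H2BC15, H2BC21 and H2BC26), 2 for H3 (H3C6 and H3C10), 1 for H2A (H2AC25) and 1 for H4 (H4C11). Each of the 12 also had the stem-loop. The hexamer does not always mark a separate annotated end: H2BC9 and H4C11 have a single coding transcript that ends 44 bases after the stop codon, and the single one of H2BC21 ends 1801 bases after it.

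H4C3 stood apart in a further sequence feature. Between its stop codon and its stem-loop lies a stretch of 20 bases with 18 A, starting 32 bases after the stop codon and shown here with each A in capitals.
H4C3, chr6:26104291-26104310, plus strand: AAAAAAcAAAAAcAAAAAAA
In the other 69 replication-dependent genes the most A in any 20 bases of the canonical transcript ranged from 7 to 13. A stretch with at least as many A as in H4C3 was present in the canonical transcript of 1808 of 19701 protein-coding genes (9.18%), and within its last 600 bases in 507 (2.57%).

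The genes that code for H3 are those whose product EZH2 methylates. All 18 H3 genes had a lysine codon at residue 27, counted without the initiating methionine. The stretch around it is given for the 3 H3 genes with enough reads to test, with the codon in capitals, from the coding sequence of H3-3A (chr1:226061851-226072019, plus strand), H3-3B (chr17:75776434-75785893, minus strand) and H3C10 (chr6:27810051-27811300, plus strand).
H3-3A: gccgctcgcAAGagtgcgccctct
H3-3B: gccgccaggAAAagcgctccctct
H3C10: gcggctcggAAGagcgctccggcc
H3-3A and H3-3B code for the same H3.3 protein, and their coding sequences were identical at 78.4% of positions.

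Raw counts per gene were deposited for each library, with 6327544 to 8987768 reads on genes. EZH2i replicate 3 stood apart in having 12.7% of its listed reads on no gene, against 7.43% to 8.51% in the other libraries, and 63.6% on genes, against 67.0% to 67.9%. Without this library the median log2 fold change of EZH2i over DMSO of the replication-dependent genes was -0.093, against -0.086 with it, while single genes moved more, H4C3 from 0.06 to 0.23, H1-4 from 0.08 to 0.28 and H2AX from -0.42 to -0.57. Levels are given as CPM, the read count of a gene scaled to a common library size, with edgeR's TMM factors to correct for differences in composition. Of 16 markers of K562 cells, 15 had enough reads to test, with a summed level of 1692 to 1839 CPM in DMSO and 1812 to 1932 CPM in EZH2i. Of 15 markers of other blood or tissue cells, 8 were tested, and these markers summed to 265 to 289 CPM in DMSO and 299 to 343 CPM in EZH2i. The B cell gene MS4A1 and the antigen-presenting cell gene HLA-DRA had 0 reads. Other members of that list were not low: CD3D had 58.3 to 99.0 CPM, KRT8 71.0 to 91.1 CPM and KRT18 89.9 to 111 CPM. The K562 marker GATA1 had 74.8 to 106 CPM, and the K562 marker HBE1, which was not tested, had 0.119 to 0.681 CPM. By edgeR, 3 of the 15 tested K562 markers and 3 of the 8 others rose, and 0 of either fell, where 3.34% of all tested genes rose and 0.922% fell. The part of these differences in the histone results was not tested.

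Of the 92 histone genes, 90 were matched to a row of the files by identifier, and H2AC18 and H2AC19 were not analysed here. At least 1 read was counted on 61 genes, and 32 passed the filter on low counts and were tested, 26 of them replication-dependent and 6 variants. In total, 0.527% to 0.666% of the reads on genes in a library fell on histone genes. Replication-dependent genes held 49.5% to 58.2% of these, although the libraries were primed from poly(A).

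Reads were concentrated in very few genes. H4C3 held 23.8% of the summed mean CPM of all histone genes, H1-2 held 20.1%, H2AZ1 held 19.1%, H3-3B held 12.3% and H2AZ2 held 10.3%. Of these, H4C3 codes for H4 and H1-2 for a linker histone, both replication-dependent, and H2AZ1 and H2AZ2 code for the variant H2A.Z, while H3-3B codes for H3.3. H4C3 (chr6:26103933-26104337, plus strand) had 1673, 1078 and 1314 CPM in DMSO replicates 1 to 3 and 1713, 1455 and 1082 CPM in EZH2i replicates 1 to 3. H1-2 (chr6:26055740-26056470, minus strand) had 1394, 1179 and 1293 CPM in DMSO and 863, 1251 and 1059 CPM in EZH2i. For H4C3 the groups overlapped over almost their whole range, and for H1-2 EZH2i replicate 2 lay within the range of DMSO.

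Scaled by exonic length, the mean level over the 6 libraries was 3422 CPM per kb in H4C3, 1605 in H1-2, 489 in H2AZ1, 160 in H1-10, 117 in H3-3B and 85.7 in H2AZ2. The replication-dependent H3 gene with most reads, H3C10, had 33.5 CPM per kb. Reads of 3′ libraries do not grow in number with transcript length, so this scale lowers the genes with long annotated ends.

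**Figure D1:**
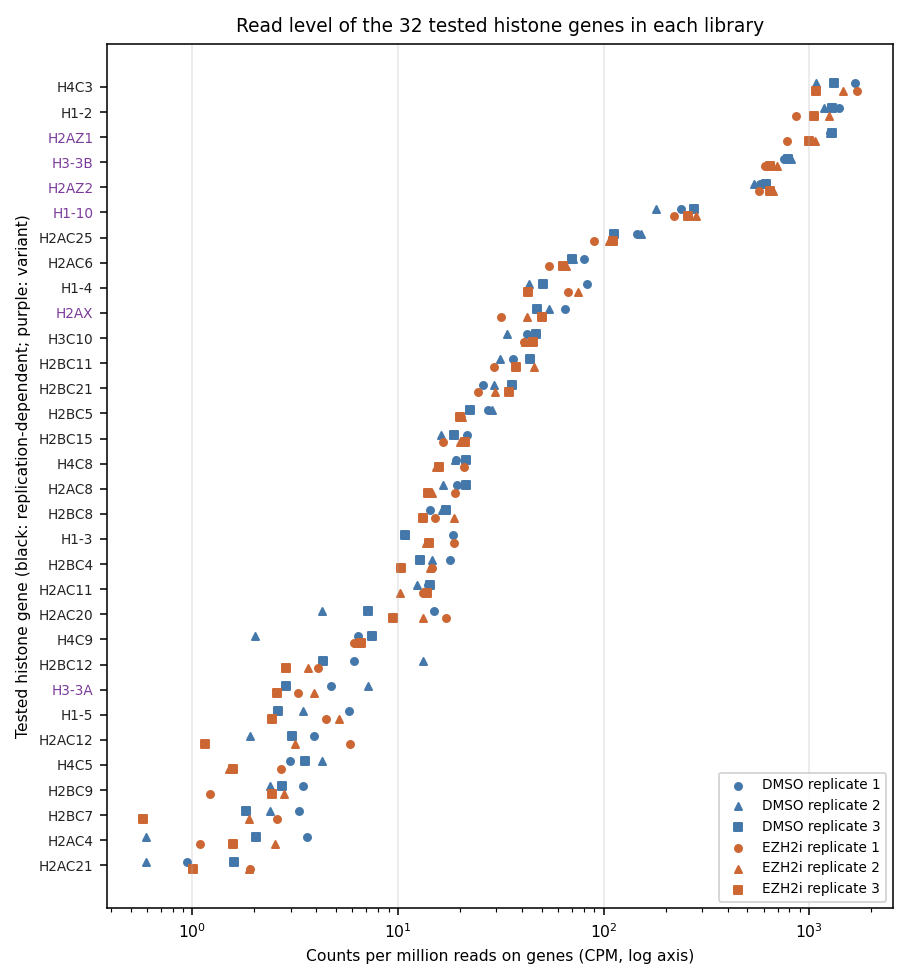
The level of each of the 32 tested histone genes (rows, ordered by mean) is plotted as CPM on a log axis for the 3 DMSO libraries (blue) and the 3 EZH2i libraries (orange). The 5 highest genes each have over 500 CPM in every library, while the replication-dependent genes below them run from 119 CPM (mean of 6 libraries, H2AC25) to 1.32 CPM (H2AC21).

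The replication-dependent genes with reads were spread over several groups of neighbours. The largest group of neighbours, 34 replication-dependent genes at chr6:25723397-26285638, held 48.1% of the summed CPM of all histone genes and 14 of the tested genes. A group of 5 genes 21.7 kb long (chr6:27125897-27147562) had all 5 tested but held 1.12%. The 16 genes of chr6:27807479-27893891 held 1.19% with 3 tested, and the 11 genes of chr1:149782689-149887965 held 0.732% with 3 tested. Without H4C3 and H1-2, the summed level of the replication-dependent genes was 568 ± 49.2 CPM in DMSO and 511 ± 25.5 CPM in EZH2i (SD, n = 3).

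The replication-dependent genes were also divided by the hexamer signal. Of the 12 genes with a poly(A) signal, 8 were tested (66.7%), and their median level over all 12 was 16.6 CPM. Of the 56 other genes with a row, 18 were tested (32.1%), and the median over all 56 was 0.223 CPM. The 6 replication-dependent H1 genes, none with the signal, had 4 tested (66.7%) and a median of 9.2 CPM. H4C3 and H1-2 are both among those without the signal. For A content, over the 68 replication-dependent genes with a row, the most A in any 20 bases and the mean CPM had a Spearman rho of 0.24. On the scale of log2(CPM + 0.1) the Pearson r was 0.36. H1-2 had at most 12 A, while H1-1 and H2AC14 had 13 A and 0 reads. These shares and correlations are descriptions of annotated genes that sit in shared clusters and share sequence.

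Sequence shared between genes limits what was counted. The aligned reads were counted only where they had a single place in the genome, and 21.4% to 22.3% of the listed counts of a library were for more than 1. Whether a read with several places was listed once or once per place is not given in the sources used here. Shares of listed reads are therefore shares of listed counts. Every window of 50 bases, the read length, in the last 300 bases of each canonical transcript was therefore searched for elsewhere in the genome. The share of windows found elsewhere was 0% for H4C3, H1-2, H3-3B, H2AZ2 and H3C10 and 19.5% for H2AZ1, but 93.2% for H3-3A, 61.0% for H2BC12 and 100% for H3C14 and H3C15. Of the 12 replication-dependent genes with at least 50% of windows shared, 1 (H2BC12) was tested (8.33%), against 13 of 35 genes with no window shared (37.1%). The latter had a median of 0.17 CPM over all 35, and over the 68 replication-dependent genes with a row the share of windows and the mean CPM had a Spearman rho of -0.0064 and, on the scale of log2(CPM + 0.1), a Pearson r of -0.23, across genes that share libraries and sequence. The levels of genes with shared ends are uncertain, and the low level of H3-3A in particular is a level of its distinguishable reads.

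**Figure D2:**
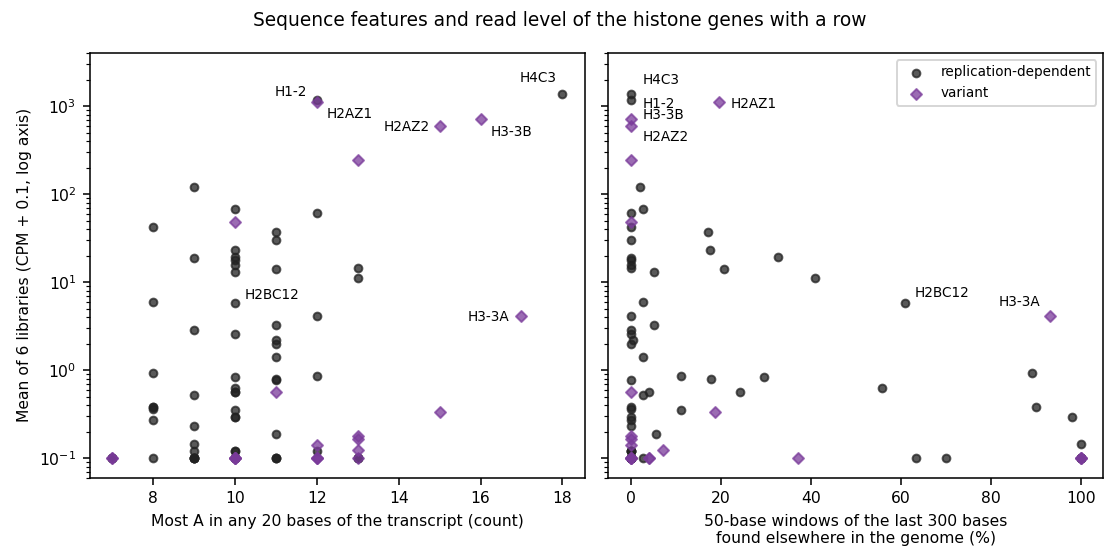
The mean level over 6 libraries (CPM + 0.1, log axis) of the 90 histone genes with a row is plotted against the most A found in any 20 bases of the canonical transcript (left) and against the percent of 50-base windows near the 3′ end found elsewhere in the genome (right). H4C3 lies alone at 18 A, while H1-2, with the next highest level, has 12 A. H3-3A, with 93.2% of windows shared, lies far below H3-3B, with 0%.

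Of the 58 genes with a row that were not tested, 29 had no read in any library, 19 replication-dependent and 10 variants. The 10 variants were H1-7, H1-8, H2AB1, H2AB2, H2AB3, H2AL1Q, H2AL3, H2BK1, H3-4 and H3-7, of which H1-8 is the oocyte linker histone and the H2AB and H2AL genes are known from testis. For genes whose ends can be told apart, a count of 0 allows a level of up to 0.340 to 0.468 CPM, set by 3 reads in each library, and this covers counting error only. No such limit can be given for H2AB1, H2AB2, H2AB3, H3C14, H3C15 and H4C15, all at 0 reads, since 100% of their windows near the 3′ end occur elsewhere in the genome. No untested gene had more than 12 reads in a library. All H3 genes other than H3-3A, H3-3B and H3C10 were untested, and H3C2 had the most reads among them, 5, 2 and 3 in DMSO and 9, 6 and 5 in EZH2i.

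The comparison of EZH2i with DMSO asks whether histone genes changed when the enzyme that modifies H3 was inhibited. Among the 32 tested genes, 1 fell (H2AZ1) and 0 rose by edgeR (quasi-likelihood test, p adjusted by Benjamini-Hochberg over all genes, threshold 0.05). Of all 12364 genes tested, 527 were called (4.26%), 413 higher in EZH2i (3.34%) and 114 lower (0.922%). DESeq2 and limma-voom also called 0 histone genes higher. At an unadjusted p under 0.05, 0 histone genes were higher and 9 were lower (28.1%), where 10.9% of all tested genes were higher and 8.21% were lower. None of the 32 was higher in every EZH2i library than in every DMSO library, where 13.3% of all tested genes were, and 7 of 32 were lower in this way (21.9%), where 11.1% of all tested genes were. These 7 were H2AZ1, H3-3B, H2AC25, H2AC6, H2BC5, H2BC12 and H4C5. The log2 fold change was negative for 19 of 32 histone genes (59.4%) and for 50% of all tested genes. Its median was -0.16 over the histone genes and -0.00021 over all tested genes.

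**Figure D3:**
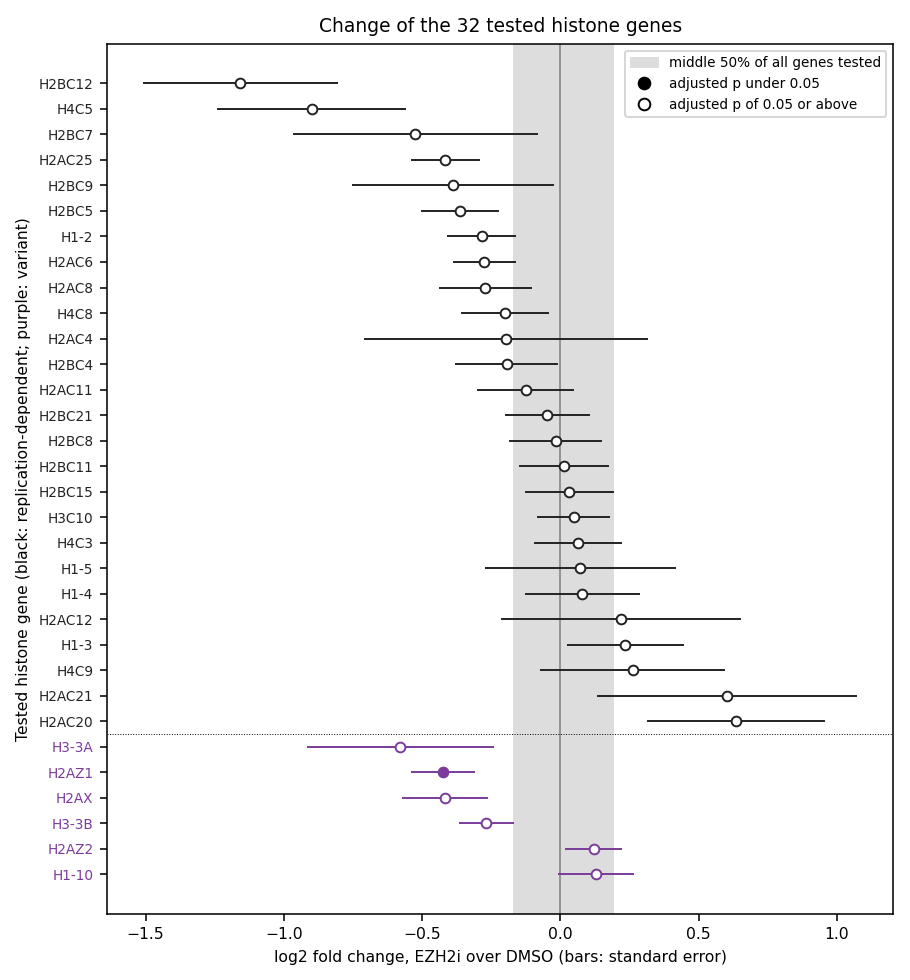
The log2 fold change of EZH2i over DMSO, with its standard error, is plotted for the 26 replication-dependent (black) and 6 variant (purple) genes tested, beside the middle 50% of all tested genes (grey). H2AZ1, at -0.43, is the one filled point (adjusted p under 0.05), and no standard error bar of a higher gene lies fully beyond the grey band except that of H2AC20.

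H2AZ1 (chr4:99948086-99950355, minus strand) codes for H2A.Z, a variant of H2A placed at promoters and enhancers by the SRCAP and p400 complexes. It had 1267, 1259 and 1291 CPM in DMSO replicates 1 to 3 and 779, 1068 and 995 CPM in EZH2i replicates 1 to 3. Every EZH2i library lay below every DMSO library, and EZH2i replicate 1 was the lowest. The log2 fold change was -0.43 ± 0.12 (SE; edgeR adjusted p = 0.0451). The call was lost when any library but EZH2i replicate 2 was left out: DMSO replicate 1, 2 or 3 or EZH2i replicate 1 or 3 (adjusted p from 0.0687 to 0.1305), with a log2 fold change of -0.30 without EZH2i replicate 1 and of -0.46 to -0.41, near the value over all libraries, without the others. With at least 10 reads required in every library the adjusted p was 0.0549, and over all 12 alternatives it ranged from 0.00134 to 0.1305. On the opposite strand the annotation has H2AZ1-DT, and whether the counting used strand is not given in the sources used here.

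H2AZ2 (chr7:44826791-44848087, minus strand), the second gene of H2A.Z, with a coding sequence identical to that of H2AZ1 at 80.5% of positions, did not pass the test. It had 575, 537 and 614 CPM in DMSO and 566, 666 and 645 CPM in EZH2i (log2 fold change 0.12 ± 0.10, edgeR adjusted p = 0.572). When 1 library was left out, its log2 fold change ran from 0.07 to 0.19. The ratio of H2AZ1 to H2AZ2 reads in CPM was 2.20, 2.34 and 2.10 in the DMSO libraries and 1.38, 1.6 and 1.54 in the EZH2i libraries. The groups did not overlap. The mean log2 ratio differed by -0.56, with p = 0.10 in a two-sided exact permutation test, the smallest value that 3 against 3 libraries allow.

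The 2 genes of H3.3, the H3 variant deposited outside S phase by HIRA and by DAXX with ATRX, had negative fold changes that did not pass the test. H3-3B had 750, 813 and 787 CPM in DMSO and 608, 697 and 647 CPM in EZH2i, a difference without overlap (log2 fold change -0.27 ± 0.10, edgeR adjusted p = 0.140). The annotation places MIR4738 within it on the same strand and UNK opposite. H3-3A had 4.69, 7.12 and 2.84 CPM in DMSO and 3.25, 3.91 and 2.58 CPM in EZH2i, with overlap (log2 fold change -0.58 ± 0.34, edgeR adjusted p = 0.364). Leaving out DMSO replicate 2 gave a fold change of -0.18, and leaving out DMSO replicate 3 gave -0.87. H3C10, the replication-dependent H3 gene with reads enough to test, had 42.5, 33.8 and 47.1 CPM in DMSO and 40.9, 41.4 and 45.4 CPM in EZH2i, within the DMSO range in all libraries (log2 fold change 0.05 ± 0.13, edgeR adjusted p = 0.888). No H3 gene was therefore called in either direction.

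Among the other variants, H2AX had 65.1, 54.0 and 47.2 CPM in DMSO and 31.7, 42.5 and 49.99 CPM in EZH2i (log2 fold change -0.42 ± 0.16, edgeR adjusted p = 0.144). EZH2i replicate 3 lay above DMSO replicate 3. Leaving out EZH2i replicate 1 gave a log2 fold change of -0.25, and leaving out EZH2i replicate 3 gave -0.57. H1-10, a linker histone made outside S phase, had 239, 179 and 276 CPM in DMSO and 221, 280 and 258 CPM in EZH2i (log2 fold change 0.13 ± 0.14, edgeR adjusted p = 0.666). The annotation has H1-10-AS1 on its other strand. The median log2 fold change of the 6 tested variants was -0.34, and their summed level, with the untested variants, was 2924 ± 86.7 CPM in DMSO and 2522 ± 283 CPM in EZH2i (SD, n = 3).

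Of the 26 replication-dependent genes tested, 0 were called in either direction, 6 had an unadjusted p under 0.05, all lower (23.1%, against 8.21% lower among all tested genes), and 15 had a negative fold change (57.7%, against 50%). Their median log2 fold change was -0.09. The summed level of all replication-dependent genes was 3692, 2793 and 3151 CPM in DMSO and 3075, 3246 and 2635 CPM in EZH2i, so that the range of each group covered most of the other.

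By family, the log2 fold changes of the tested linker histones ran from -0.28 to 0.24. H1-2 had a log2 fold change of -0.28 ± 0.12 (edgeR adjusted p = 0.221), while H1-3, with 10.8 to 18.5 CPM in DMSO and 13.6 to 18.7 CPM in EZH2i, and H1-4, with 43.5 to 82.9 and 42.8 to 75.03 CPM, had log2 fold changes of 0.24 and 0.08. When 1 library was left out, H1-2 ran from -0.42 (without EZH2i replicate 2) to -0.16 (without EZH2i replicate 1), and H1-3 from 0.08 (without EZH2i replicate 1) to 0.52 (without DMSO replicate 1). None of these genes passed the test, and the difference between the genes was not tested. Summed, the replication-dependent H1 genes had 1365 ± 133 CPM in DMSO and 1139 ± 196 CPM in EZH2i (SD, n = 3).

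The replication-dependent H2A genes summed to 259 ± 24.1 CPM in DMSO and 213 ± 8.02 CPM in EZH2i (SD, n = 3). H2AC25, which lies on chromosome 1 apart from the main cluster and has both a stem-loop and a poly(A) signal, held much of this, with 145, 152 and 113 CPM in DMSO and 89.9, 106 and 111 CPM in EZH2i. The groups did not overlap, though DMSO replicate 3 and EZH2i replicate 3 were close (log2 fold change -0.42 ± 0.12, edgeR adjusted p = 0.0695). It was called when DMSO replicate 3 was left out (-0.54, adjusted p = 0.0395). H2AC6 had 80.1, 70.9 and 70.0 CPM in DMSO and 53.9, 65.3 and 63.0 CPM in EZH2i (log2 fold change -0.28 ± 0.11, edgeR adjusted p = 0.188). A GENCODE gene on its strand overlaps H2AC6. H2AC20, with 15.01, 4.27 and 7.15 CPM in DMSO and 17.1, 13.2 and 9.45 CPM in EZH2i, had the highest log2 fold change of the tested histone genes, 0.63 ± 0.32 (edgeR adjusted p = 0.291), and it rested on single DMSO libraries: it was called without DMSO replicate 1 (1.21, adjusted p = 0.0490) and was 0.29 without DMSO replicate 2 (adjusted p = 0.693). Of its windows near the 3′ end, 41.0% occur elsewhere in the genome. H2AC21 had 0.594 to 1.59 CPM in DMSO and 1.00 to 1.90 CPM in EZH2i (log2 fold change 0.60 ± 0.47, edgeR adjusted p = 0.522), with log2 fold changes of 0.31 without DMSO replicate 2 and 1.09 without DMSO replicate 3.

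The replication-dependent H2B genes summed to 160 ± 2.66 CPM in DMSO and 145 ± 14.9 CPM in EZH2i (SD, n = 3), and 7 of 9 tested had a negative fold change. H2BC5 had 27.4, 28.5 and 22.5 CPM in DMSO and 20.3, 20.6 and 19.9 CPM in EZH2i, with no overlap (log2 fold change -0.36 ± 0.14, edgeR adjusted p = 0.163). H2BC12 had 6.10, 13.2 and 4.31 CPM in DMSO and 4.06, 3.66 and 2.86 CPM in EZH2i. Its log2 fold change of -1.16 ± 0.35 (edgeR adjusted p = 0.0749) was the lowest of the tested histone genes and rested on DMSO replicate 2: without that library it was -0.54 (adjusted p = 0.454). It was called without DMSO replicate 3 (-1.47, adjusted p = 0.0321) and with no filter on low counts (-1.18, adjusted p = 0.000687). The 3 H2B genes with the highest level besides H2BC5, namely H2BC11, H2BC21 and H2BC15, had log2 fold changes of 0.01, -0.05 and 0.03, each smaller than its standard error, which was 0.15 to 0.16.

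The replication-dependent H4 genes summed to 1386 ± 301 CPM in DMSO and 1445 ± 319 CPM in EZH2i (SD, n = 3), nearly all of it from H4C3, whose log2 fold change was 0.06 ± 0.16 (edgeR adjusted p = 0.870). H4C5 had 2.97, 4.27 and 3.52 CPM in DMSO and 2.71, 1.51 and 1.58 CPM in EZH2i, again without overlap (log2 fold change -0.90 ± 0.34, edgeR adjusted p = 0.153). H4C9 had 2.02 to 7.49 CPM in DMSO and 6.10 to 6.59 CPM in EZH2i (log2 fold change 0.26 ± 0.33, edgeR adjusted p = 0.727).

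Histone genes of both classes deviated from the mean of their group in the same direction within some cultures. On the log2(CPM + 0.5) scale, 19 of the 26 tested replication-dependent genes lay above the mean of their group in DMSO replicate 1 and 21 lay below it in DMSO replicate 2, with median deviations of 0.12 and -0.16. Of all 12364 tested genes, 6293 lay above in the former and 6064 below in the latter. In EZH2i replicates 1, 2 and 3 the median deviations of the replication-dependent genes were 0.13, 0.06 and -0.11, with 15, 19 and 10 of 26 above. The distance between these cultures of 1 group was larger than the median change between groups. The variants deviated as well, with 5 of 6 below the mean of their group in EZH2i replicate 1 (median -0.17) and 6 of 6 above it in EZH2i replicate 2 (0.13). In EZH2i replicate 1 the medians of the classes thus had opposite signs. The 27 S phase genes deviated by medians of -0.05 to 0.06 over the 6 libraries, with 19 of 27 above the mean in DMSO replicate 1 and EZH2i replicate 2 and 19 of 27 below it in EZH2i replicate 3. Among genes with a mean of at least 10 CPM, the median coefficient of variation within groups was 14.2% for the 17 replication-dependent genes, 11.3% for 5 variants and 10.4% for 8536 other genes. These sets were not matched for level. The replication-dependent genes had means of 11.0 to 1386 CPM and the variants of 48.4 to 1110 CPM. The part of read depth in these medians was not tested.

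**Figure D4:**
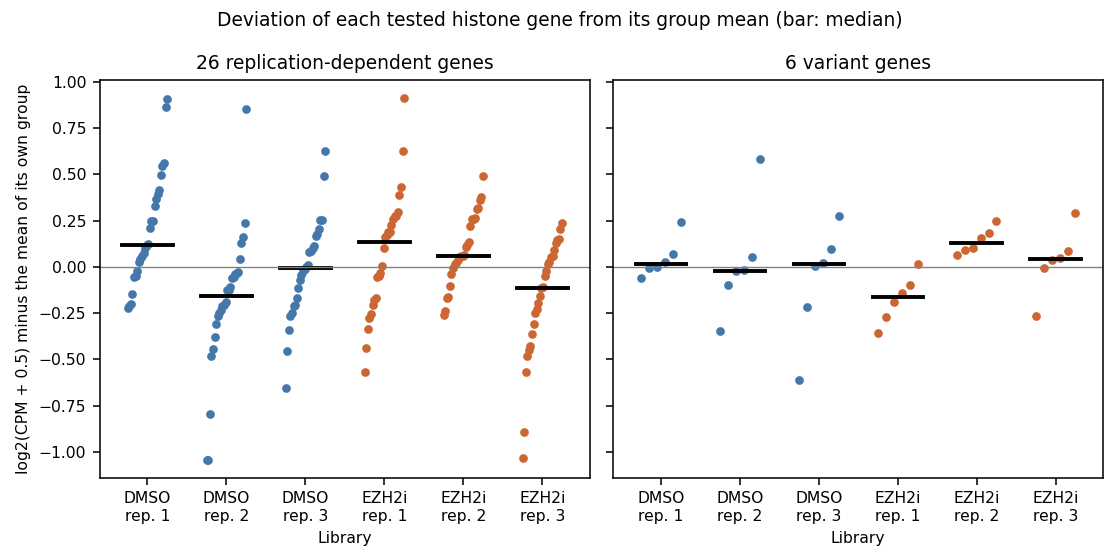
Each point is 1 tested histone gene, plotted as its log2(CPM + 0.5) in a library minus the mean of that library's group, and the bars are medians. The replication-dependent genes (left) sit mostly above 0 in DMSO replicate 1 and EZH2i replicate 2 and mostly below 0 in DMSO replicate 2 and EZH2i replicate 3.

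Genes that make the ends of histone mRNAs, and that mark S phase, were described beside the histone genes by their counts and medians. Of 31 genes of histone 3′ end processing and decay, 0 rose and 1 fell, where 3.34% and 0.922% of all tested genes did, with a median log2 fold change of -0.05. At an unadjusted p under 0.05, 5 were lower (16.1%, against 8.21% of all tested genes), and 7 were lower in every EZH2i library than in every DMSO library (22.6%, against 11.1%). The gene that fell was SNRPG, which codes for the SmG protein of spliceosomal and U7 ribonucleoproteins, with 106, 139 and 128 CPM in DMSO and 71.8, 91.9 and 90.7 CPM in EZH2i (log2 fold change -0.55 ± 0.12, edgeR adjusted p = 0.0187). This call was lost without DMSO replicate 2 or 3 (adjusted p = 0.119 and 0.0781). SLBP, which binds the stem-loop, had 66.6, 70.4 and 55.0 CPM in DMSO and 47.4, 49.6 and 46.8 CPM in EZH2i, with no overlap (log2 fold change -0.42 ± 0.12, edgeR adjusted p = 0.0564), and it was called without DMSO replicate 3 (adjusted p = 0.0447) and with no filter on low counts (adjusted p = 0.025). NPAT, the coactivator of histone gene clusters, and CASP8AP2, which takes part in histone mRNA processing, had log2 fold changes of -0.17 and -0.15 (edgeR adjusted p = 0.428 and 0.493). These were -0.08 for NPAT when EZH2i replicate 3 was left out and -0.08 for CASP8AP2 when DMSO replicate 2 was.

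Of 27 genes of S phase, 4 of which are also in the lists of processing or chaperone genes, 0 rose, 3 fell and 24 had a negative fold change (88.9%), with a median of -0.22. Of all tested genes, 3.34% rose, 0.922% fell and 50% had a negative fold change. The 3 were CDC25A, a phosphatase of entry into S phase (log2 fold change -0.54 ± 0.13, edgeR adjusted p = 0.0218), CDC45, a part of the replicative helicase (-0.53 ± 0.12, adjusted p = 0.0152), and RRM1, a subunit of ribonucleotide reductase (-0.50 ± 0.13, adjusted p = 0.0411). The call of RRM1 was lost without any 1 of the DMSO libraries (adjusted p from 0.109 to 0.135), that of CDC25A without DMSO replicate 1 or 2 (0.115 and 0.0908) and that of CDC45 without DMSO replicate 1 (0.100). The log2 fold changes were then -0.51 to -0.49 for RRM1, -0.48 and -0.54 for CDC25A and -0.44 for CDC45. That of RRM1 was -0.33 when EZH2i replicate 1 was left out. The summed level of the list was 3572, 3480 and 3308 CPM in DMSO and 2871, 2976 and 2804 CPM in EZH2i, with every EZH2i library below every DMSO library. In these bulk samples, fewer cells in S phase and less RNA per cell cannot be told apart, and the part of S phase genes in the histone values was not tested.

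Histone chaperones and exchange factors gave no calls: of 34 genes, 0 rose and 0 fell by edgeR, with 2 higher (5.88%) and 7 lower (20.6%) at an unadjusted p under 0.05, against 10.9% and 8.21% of all tested genes, and a median log2 fold change of -0.12. Without overlap of the groups, 10 of the 34 were lower (29.4%, against 11.1% of all tested genes). In the other direction 4 were higher, where 13.3% of all tested genes were. HIRA, the chaperone of H3.3, was among these 4, with 15.2, 14.5 and 16.7 CPM in DMSO and 24.9, 16.8 and 19.6 CPM in EZH2i. Its log2 fold change was 0.40 ± 0.17 (edgeR adjusted p = 0.195) and 0.23 without EZH2i replicate 1. DAXX and ATRX, which deposit H3.3 at heterochromatin and telomeres, had log2 fold changes of -0.03 and -0.01. CHAF1A and CHAF1B, subunits of the chromatin assembly factor that deposits H3 at replication forks, had log2 fold changes of -0.24 and -0.30 (edgeR adjusted p = 0.227 and 0.176). Both were lower without overlap. When 1 library was left out, CHAF1A ran from -0.29 to -0.15 and CHAF1B from -0.36 to -0.23. ASF1A and ASF1B, which hand H3 and H4 to other chaperones, had log2 fold changes of -0.11 and -0.19 (edgeR adjusted p = 0.750 and 0.430). That of ASF1B ran from -0.35 to -0.06 when EZH2i replicate 3 or 1 was left out.

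Of 3 further histone variants outside the naming rule, 2 were tested. CENPA, the H3 variant of centromeres, had 30.2, 26.7 and 25.6 CPM in DMSO and 15.2, 23.3 and 24.2 CPM in EZH2i (log2 fold change -0.39 ± 0.17, edgeR adjusted p = 0.203), with a log2 fold change of -0.20 without EZH2i replicate 1. MACROH2A1 had a log2 fold change of -0.10 ± 0.10 (edgeR adjusted p = 0.621), which ran from -0.15 to -0.07 when 1 library was left out. MACROH2A2 had 0 reads in all libraries but EZH2i replicate 3, with 2 reads.

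**Figure D5:**
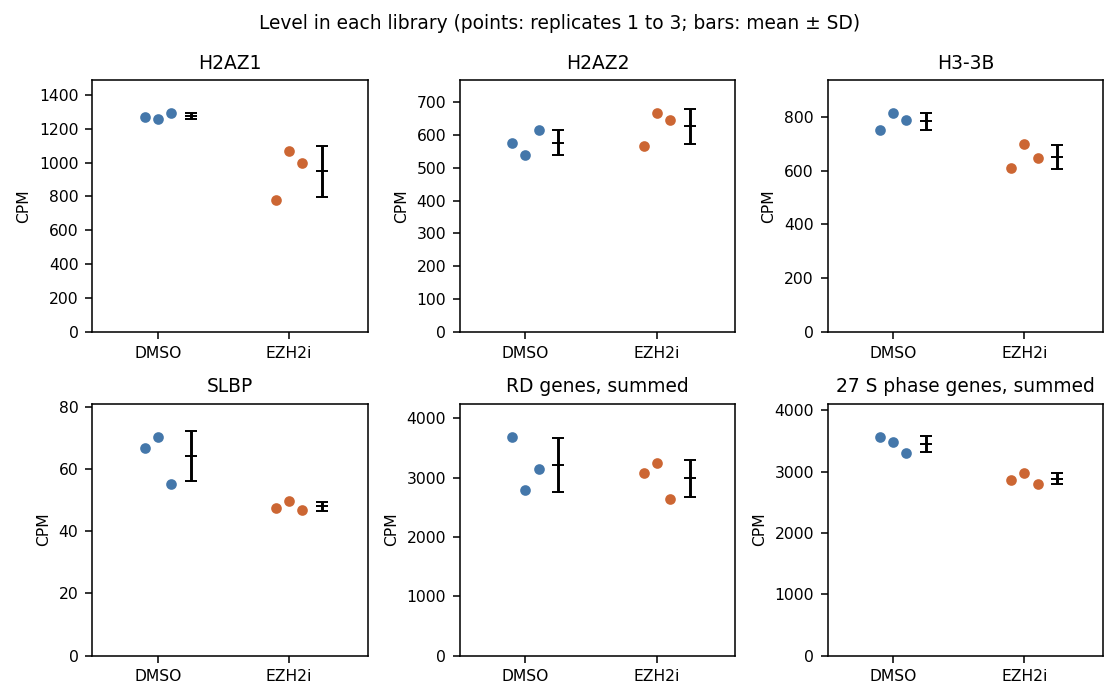
Levels in CPM of H2AZ1, H2AZ2, H3-3B, SLBP, the summed replication-dependent histone genes (RD) and the summed S phase genes are plotted for each library (points), with the mean ± SD of 3 libraries. The groups are separate for H2AZ1, H3-3B, SLBP and the S phase sum, and overlap for H2AZ2 and the summed replication-dependent genes.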

How the data were processed

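Three-prime mRNA libraries (QuantSeq FWD) of 6 cultures were used, 3 per group by the labels. Per the labels' processing notes, the authors used STAR 2.6.0c and HTSeq 0.11.2 on GRCh38 (hg38). They deposited raw counts per Ensembl gene for each library, unpooled. The strand setting of the counting is not given in the sources used here. A further deposited table holds the authors' DESeq2 comparison (mean normalized counts, log2 fold changes with standard errors, Wald statistics and p-values) and was not used.

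Library sizes and tests used only rows that name a gene, which held 63.6% to 67.9% of the listed reads; reads with several places, no gene or more than 1 gene made up the rest. The test was edgeR's quasi-likelihood test (version 4.0.16, R 4.3.3; TMM, filterByExpr with a minimum count of 10, glmQLFTest, two-sided, Benjamini-Hochberg over all tested genes, threshold 0.05). A standard error is the log2 fold change divided by the square root of F. DESeq2 1.42.0, limma-voom (limma 3.58.1), other filters and scaling, a replicate block and leaving out each library were tried as alternatives. Within groups, replicates differed by more than sampling noise (chi-square per degree of freedom 4.25 to 11.5).

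Gene names, spans and transcripts come from GENCODE 44 and sequences from GRCh38, and 60401 of 60671 identifiers matched. The histone genes and the gene lists were chosen with earlier results of these data known. Named were called histone genes, the 15 with the highest mean CPM, the 6 with the smallest p in each direction, tested H3 genes, called genes of the lists, and 13 chaperone, processing and variant genes fixed by name. Genes named for a sequence feature or at 0 reads were chosen after their values were seen. One gene that meets the naming rule is not reported here by name.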

Additional observations from a re-analysis of the deposited data

How the results depend on the processing

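The histone genes called higher numbered 0 under every alternative except without DMSO replicate 1, which gave 1, so that the range over the leave-one-out fits was 0 to 1. The number called lower, 1, became 4 with no filter on low counts (H2AZ1, H2AC25, H2AX and H2BC12), 0 with at least 10 reads in every library, 2 with the replicate number as a block (H2AZ1 and H2BC12), and 0 to 2 when 1 library was left out. All genes called, 527, became 928 with no filter and 209 to 536 when 1 library was left out, with 213, 209 and 240 without DMSO replicates 1, 2 and 3. Over the same fits the median log2 fold change of the replication-dependent genes stayed between -0.165 and -0.077 and that of the variants between -0.380 and -0.208, while with no filter it was -0.218 for 49 replication-dependent genes and -0.116 for 12 variants, which turned the order of the classes. The replication-dependent median was also -0.042 with limma-voom and -0.043 with at least 10 reads in every library. Leave-one-out fits turned the sign of the log2 fold changes, none of them called, of H4C3 (-0.091 to 0.24), H1-10 (-0.0257 to 0.28), H1-4 (-0.10 to 0.40), H3C10 (-0.0763 to 0.16), H2BC11 (-0.16 to 0.17; -0.00804 with no filter), H2BC21 (-0.17 to 0.0946), H2BC15 (-0.0682 to 0.14), H4C9 (-0.14 to 0.64), DAXX (-0.17 to 0.10), ATRX (-0.0486 to 0.0357) and ASF1A (-0.21 to 0.0163). The cause of these moves was not tested. Nothing in the labels says that the replicate numbers pair cultures, so the main fit had no block. Deviations of same-numbered samples correlated at -0.05, -0.02 and -0.02. The block moved the count of all genes called to 599. For genes with few reads, a difference may not be detectable at this depth.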
